A study of Mus musculus with 8 samples.

Results

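The genes described here are the chemokines and chemokine receptors of the mouse, in RNA from trafficked maternal cells and from recipient cells of pups aged 1 week. Members were the protein-coding genes whose symbol has Ccl, Cxcl, Ccr, Cxcr, Xcl or Ackr followed by a digit, together with Cx3cl1. In the GENCODE annotation 63 genes met this rule, and 61 of them are among the 52784 genes of the count table. Ccl21e and Ccl27b were not analysed here. The 61 members comprise 11 CC receptors, 6 CXC receptors, 4 atypical receptors, 16 inflammatory CC ligands, 12 homeostatic ligands, 4 neutrophil-attracting CXC ligands, 3 interferon-induced CXC ligands, 2 transmembrane ligands, Xcl1, and Ccl21f and Ccl27al, which were left unclassified.

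The study asked how the dam's dendritic cells (DC) affect the fetal response to in-utero transplantation (IUT) of bone marrow cells. Dams were C57BL/6 mice carrying CD11c-DTR, a diphtheria toxin receptor under the Itgax (CD11c) promoter, and sires were BALB/c, so all pups were F1 hybrids. Each of the 8 libraries is a pool of pups, with 1 library for each origin of cells (trafficked maternal or recipient) in each of 4 treatments. Uninjected pups had no IUT and came from dams given diphtheria toxin (DT) or saline. In DC control mIUT, the dam had saline on embryonic day 13 and each fetus had 5000000 B6 (CD45.1, H2K-b) marrow mononuclear cells on day 14. In DC control pIUT the donor cells were BALB/c marrow under the same schedule. In DC-depleted pIUT the dam had DT at 5 ng/g in place of saline before BALB/c cells were given. All dams, those of the controls included, carried CD11c-DTR. Mononuclear cells from whole-body harvests were sorted by H2K-b for maternal and by H2K-d for recipient cells. F1 cells inherit both haplotypes, B6 donor cells share the maternal marker and BALB/c donor cells share a recipient marker, so the libraries named by origin may hold other cells.

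With 1 library in a group, a difference lies between libraries and has no replicate check. Levels are given as CPM, counts scaled to a common depth with edgeR's TMM factors. A gene was taken as detected above 3 counts, and where a library had 0 counts the fold is a bound computed against 3 counts in that library. Intervals of ratios are exact, at 95%, and cover counting error only, since reads without molecular identifiers are not independent molecules. A member was called different at 4-fold or more, among genes with at least 10 counts in 1 of the compared libraries. Library totals ranged from 38543457 to 47965130 counts. The recipient uninjected and the maternal DC control mIUT libraries stood apart, with 9.51% and 4.86% of the genes that reach 10 CPM in all other libraries below 1 CPM, against at most 1.26% elsewhere. The sorted cells are labelled mononuclear, but the summed level of 8 neutrophil genes (Elane, Mpo, S100a8 and others) ranged from 1608 CPM in maternal DC control pIUT to 275329 CPM in recipient DC control mIUT. The summed level of 6 erythroid genes ranged from 135 CPM in recipient DC control mIUT to 131058 CPM in maternal DC-depleted pIUT. In bulk RNA, fewer cells of a type and less RNA per cell cannot be told apart.

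Chemokines are small secreted proteins, and a pair of them (Cx3cl1 and Cxcl16) are tethered to the membrane. They bind receptors coupled to Gi proteins and steer leukocytes along gradients. Homeostatic ligands place lymphocytes in lymphoid organs, as Cxcl13 does for B cells with the receptor Cxcr5, while inflammatory ligands are induced at sites of injury or infection. Atypical receptors bind chemokines without G protein signalling and remove, store or transport them. Marrow cells are held in their niche by Cxcl12 and Cxcr4, and neutrophils leave it through Cxcr2.

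The neutrophil-attracting ligands Cxcl1, Cxcl2 and Cxcl3 lie in a cluster on chromosome 5. Their promoters are shown because all 3 were highest in maternal DC control pIUT and share a sequence. The motif searched was GGGANNTTCC, a form of the NF-κB site, on both strands of the 250 bases before the transcript start (GRCm39). The last 130 bases before the start are printed from 5′ to 3′ on the plus strand, and capitals mark the run made by the pair of overlapping matches, one on each strand.
Cxcl1, chr5:91038964-91039093: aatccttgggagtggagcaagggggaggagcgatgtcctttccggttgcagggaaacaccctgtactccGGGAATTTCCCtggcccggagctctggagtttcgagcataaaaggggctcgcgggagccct
Cxcl2, chr5:91051600-91051729: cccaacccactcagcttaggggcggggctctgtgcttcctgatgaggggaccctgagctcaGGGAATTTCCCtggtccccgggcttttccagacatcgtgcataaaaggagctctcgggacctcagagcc
Cxcl3, chr5:90933832-90933961: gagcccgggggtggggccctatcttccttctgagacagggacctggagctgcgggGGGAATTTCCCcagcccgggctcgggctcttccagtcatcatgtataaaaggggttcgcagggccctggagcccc
The matches begin at positions -61 and -60 from the start in Cxcl1, -69 and -68 in Cxcl2, and -75 and -74 in Cxcl3. The motif was found before 10 of the 61 members (16.4%) and before 283 of 21537 protein-coding genes of the table (1.31%). The 10 were Ccl1, Ccl27al, Ccl5, Ccr3, Cxcl1, Cxcl10, Cxcl2, Cxcl3, Cxcl5 and Cxcr5. These genes did not share a pattern of levels: Cxcl2 and Cxcl3 were highest in maternal DC control pIUT, and Cxcr5 and Ccl5 were highest in the maternal uninjected library. A match describes the sequence and is not evidence of binding.

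The number of members detected differed among the 8 libraries, as did the number of all genes. After mIUT and pIUT refers to the DC controls unless DC depletion is named, and values given without names follow the order uninjected, mIUT, pIUT and DC-depleted pIUT. In the maternal libraries 36 members were above 3 counts without injection, 21 after mIUT, 28 after pIUT and 35 after pIUT with DC depletion. In recipient cells the numbers were 24, 30, 40 and 49 in the same order. Over all genes the numbers above 3 counts were 13869, 10664, 13628 and 14540 in maternal and 9937, 14585, 15975 and 17806 in recipient libraries, so that the recipient libraries had the same order for members as for all genes. Of the 61 members, 11 were above 3 counts in all 8 libraries, 9 in none, and 26 reached 20 CPM in at least 1 library. The 7 members at 0 counts throughout were Ackr2, Ccl11, Ccl19, Ccl21b, Ccl21d, Ccl26 and Cxcl17. Near-identical copies can split or lose reads: Ccl21b and Ccl21f share 100% of their 31-base stretches with other genes, Ccl21d 99.9%, Ccl27al 98.9%, Ccl19 82.8%, Ccl21a 62.6% and Ccl27a 57.9%, so the counts of these genes are uncertain. Of the 52 members detected somewhere, 12 (23.1%) had their highest CPM in maternal DC control pIUT, where 15.4% of all detected genes were highest, and 4 (7.69%) in maternal DC-depleted pIUT, where 17.6% of all genes were highest.

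**Figure D1:**
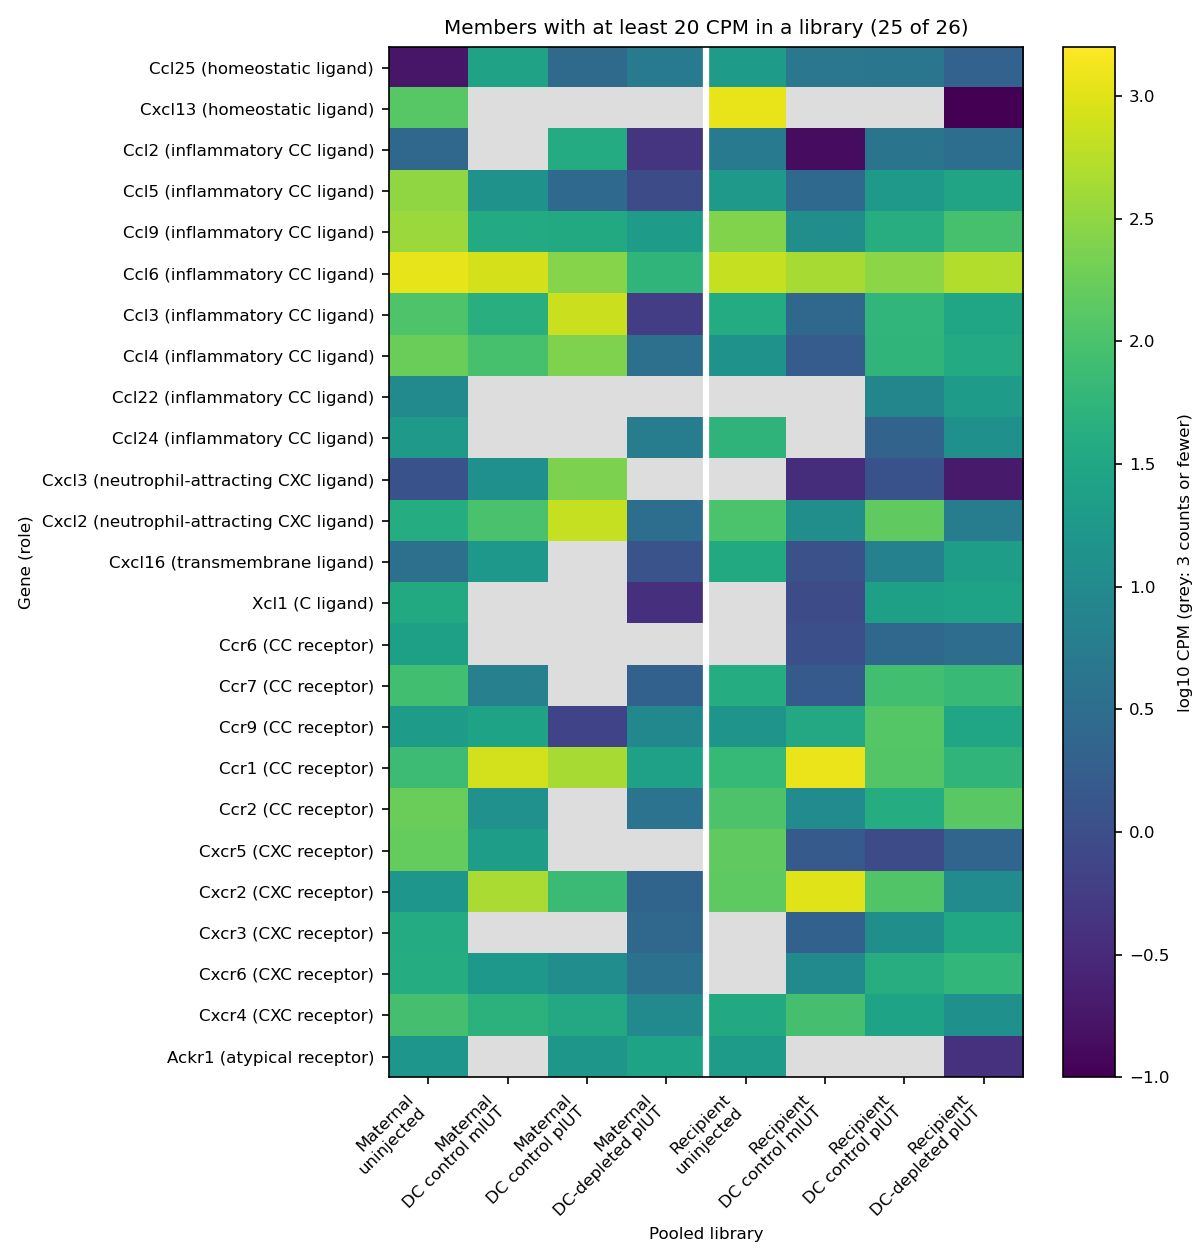
Level of 25 of the 26 members with at least 20 CPM in a library (rows, with their role) in the 8 pooled libraries (columns, maternal on the left). Colour is log10 CPM, and grey marks 3 counts or fewer, so that Ccl6 is coloured in every library and Cxcl13 is bright only in the uninjected libraries.

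Between genes, levels were compared per kilobase of exon (RPKM, CPM divided by exon length). Ccl6, an inflammatory CC ligand of myeloid cells, was the leading ligand in 6 of the 8 libraries, with 33.4% of all ligand RPKM in recipient DC control pIUT and 91.8% in recipient DC control mIUT at the ends of this range. In maternal DC control pIUT, Ccl3 led with 49% of ligand RPKM, followed by Ccl4 (18.3%) and Cxcl2 (16.8%). In the recipient uninjected library, the B cell attractant Cxcl13 led with 60%. Receptors differed as well. Ccr1 and Cxcr2 made up 57.2% and 30.5% of receptor RPKM in maternal DC control mIUT, and 51.8% and 40.2% in recipient DC control mIUT, whereas Cxcr4 (18.8%), Cxcr5 (18.6%) and Ccr7 (16.1%) led in maternal uninjected cells. The total RPKM of all ligands was lowest, at 61.4, in maternal DC-depleted pIUT and highest, at 1917, in maternal DC control pIUT.

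Cxcr2 and Ccr1 were highest in the mIUT library of each origin. Cxcr2, which carries neutrophils out of the marrow, was at 16.3 CPM in maternal uninjected cells, 471 after mIUT, 73.3 after pIUT and 2.27 after pIUT with DC depletion. In recipient cells it was at 142 CPM, 995, 113 and 10.6 in that order. Ccr1, the receptor of Ccl3, Ccl5 and related ligands on neutrophils and monocytes, was at 76.6, 824, 440 and 25.8 CPM in the maternal libraries. Its recipient levels were 66.0, 1196, 119 and 55.3 CPM. Thus DC-depleted pIUT had the lowest value of both receptors within each origin. Against uninjected pups, maternal DC control mIUT had 28.8-fold more Cxcr2 (95% interval 26.6 to 31.3) and 10.8-fold more Ccr1 (10.4 to 11.2). In recipient cells the same contrast gave 6.99-fold for Cxcr2 (6.8 to 7.17) and 18.1-fold for Ccr1 (17.5 to 18.8). Cxcr1, the other receptor of this class, reached 18.2 CPM in maternal DC control mIUT and 2.36 CPM in maternal uninjected cells, and had at most 6 counts in each other library, with 0 in recipient DC control mIUT. About 11% of Cxcr2's 31-base stretches recur in other genes.

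The summed level of neutrophil genes was also highest in the mIUT libraries. It was 168494 CPM in maternal and 275329 CPM in recipient DC control mIUT, against 2732 and 15671 CPM in uninjected pups, with all 8 genes detected in each of these libraries. All 8 were higher in maternal mIUT than in maternal uninjected cells. In recipient cells Ngp, S100a8, S100a9, Ltf, Camp and Retnlg were higher after mIUT, while Elane and Mpo, granule genes of neutrophil precursors, were lower, at 1236 and 4385 CPM without injection and 270 and 998 CPM after mIUT. In maternal DC control pIUT this sum was the lowest of the 8 libraries, at 1608 CPM with Elane at 0 counts, while Ccr1 was at 440 CPM. In maternal DC-depleted pIUT the sum was higher, at 10891 CPM, while Ccr1 was at 25.8 CPM and Cxcr2 at 2.27 CPM. The part of neutrophil content in the receptor levels was not tested.

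**Figure D2:**
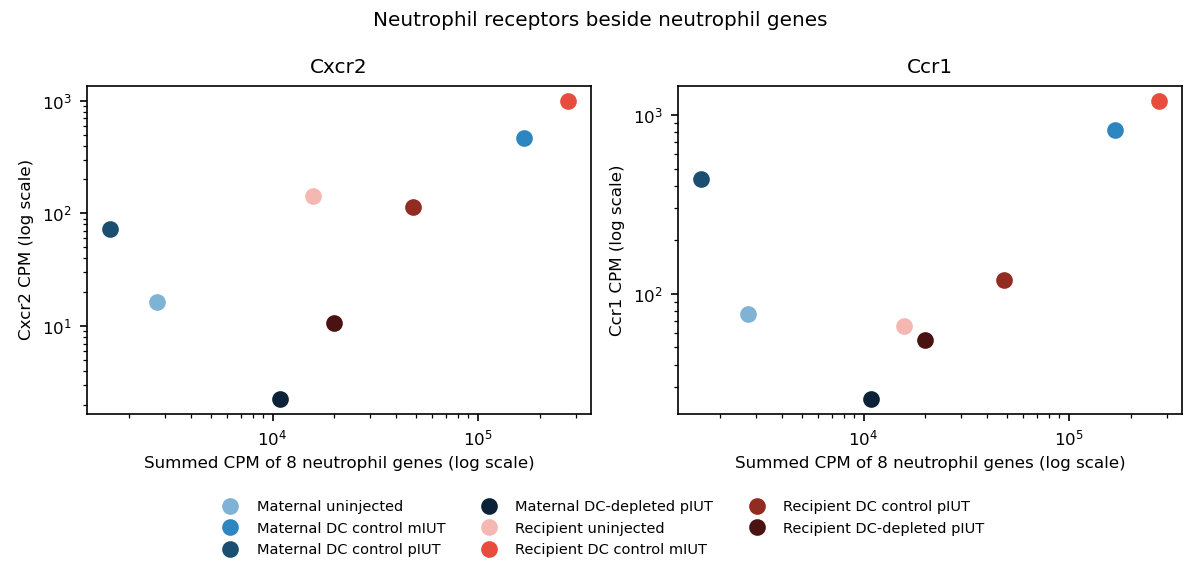
CPM of Cxcr2 (left) and Ccr1 (right) against the summed CPM of 8 neutrophil genes, both on log scales, with 1 point for each of the 8 pooled libraries. Both mIUT libraries lie at the upper right, and maternal DC control pIUT has 440 CPM of Ccr1 at the lowest neutrophil sum.

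Cxcl1, Cxcl2, Cxcl3, Ccl2, Ccl3, Ccl4 and Ccl7 were highest in the maternal DC control pIUT library and lower after DC depletion, while other inflammatory CC ligands, such as Ccl5, Ccl6 and Ccl9, had their highest maternal level in uninjected pups. Cxcl2, a ligand of Cxcr2, was at 40.1 CPM in maternal uninjected cells, 97.4 after mIUT, 668 after pIUT and 3.33 after pIUT with DC depletion. Cxcl3, another Cxcr2 ligand, was at 1.16, 12.8, 239 and 0 CPM in the same order. Cxcl1 was lower, at 0.874, 0, 10.8 and 0.121 CPM. All 3 therefore peaked in the same maternal library, which is a reason why their promoters were printed above. Of the other members with a match, Ccl1, Ccl27al, Ccr3, Cxcl5 and Cxcr5 had 0 counts in that library, and Ccl5 and Cxcl10 were detected. Among CC ligands, Ccl3, which attracts cells through Ccr1, was at 111, 44.7, 728 and 0.575 CPM. Ccl4, its close relative, was at 179, 96.1, 241 and 3.57 CPM. Ccl2 and Ccl7, monocyte attractants that bind Ccr2, were at 38.3 and 12.9 CPM in maternal DC control pIUT and at most 2.54 and 0.909 CPM in the other maternal libraries. The interferon-induced ligands, which bind Cxcr3, were also highest there among maternal libraries: Cxcl10 was at 9.53 CPM in maternal DC control pIUT against at most 2.67 in the other maternal libraries, and Cxcl11 and Cxcl9 were at 7.95 and 1.76 CPM there and at 0 counts in the other 3.

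In recipient cells these ligands were spread differently. Cxcl2 was at 103 CPM without injection, 11.7 after mIUT, 151 after pIUT and 6.04 after pIUT with DC depletion. Cxcl3 was at 0, 0.349, 1.13 and 0.201 CPM, and Cxcl1 at 0.0414, 0, 1.02 and 0.511 CPM. Recipient Cxcl3 thus had at most 51 counts, while Cxcl2 was above 100 CPM in uninjected and DC control pIUT cells, and reads of the pair can be exchanged over 7.59% of Cxcl2's 31-base stretches. Ccl3 was at 38.4, 2.58, 58.2 and 31 CPM and Ccl4 at 13.9, 1.64, 55.3 and 37.6 CPM. Recipient Ccl2 was at 5.56, 0.139, 4.18 and 3.25 CPM. Between recipient DC-depleted and DC control pIUT, Cxcl2 and Cxcl3 were lower by more than 4-fold, and Cxcl1, Ccl2, Ccl3 and Ccl4 were not.

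**Figure D3:**
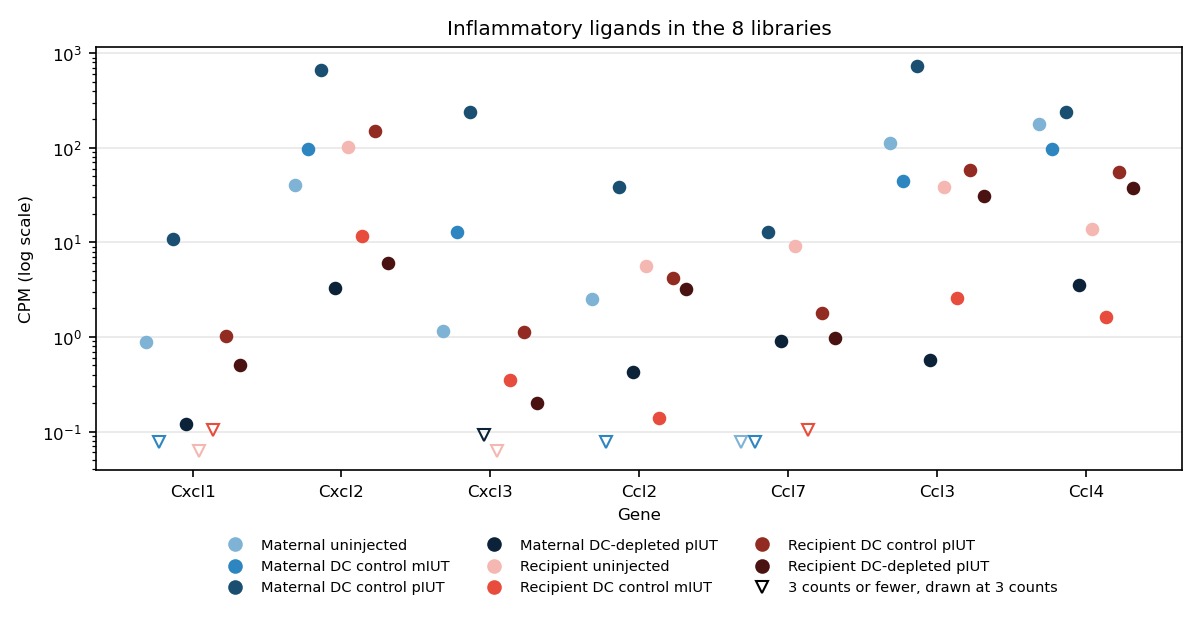
CPM on a log scale of 7 inflammatory ligands in the 8 pooled libraries (blue maternal, red recipient; open triangles mark 3 counts or fewer, drawn at the level of 3 counts). The 7 were chosen after their values were seen, and each has its highest point in maternal DC control pIUT, from 10.8 CPM for Cxcl1 to 728 CPM for Ccl3.

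B cell homing genes were high in both uninjected libraries. Cxcr5, which brings B cells into follicles, was at 163 CPM in maternal uninjected cells, 22.8 in DC control mIUT and 0 in both maternal pIUT libraries. In recipient cells it was at 149 CPM without injection, 1.53 after mIUT, 0.952 after pIUT and 2.37 after pIUT with DC depletion. Its ligand Cxcl13 was at 1140 CPM in recipient and 128 CPM in maternal uninjected cells. In the IUT libraries Cxcl13 had 0 counts in 4, 1 count in recipient DC control mIUT and 5 counts in recipient DC-depleted pIUT. Receptor and ligand were therefore at 22.8 CPM or less in every IUT library. Ccr6, a receptor of B cells and of some T cells, was at 24.8 CPM in maternal uninjected cells and 0 in the other maternal libraries. In recipient cells Ccr6 had the opposite order, with 0 CPM in uninjected pups and 1.05, 2.63 and 3.16 CPM after IUT.

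Summed measures of B cells were also highest in the maternal uninjected library. Immunoglobulin reads in the deposited clonotype tables numbered 325484 in maternal and 56853 in recipient uninjected cells, and between 915 and 8673 in the 6 IUT libraries. The summed CPM of 8 B cell genes was 7095 in maternal and 1287 in recipient uninjected cells and at most 327 after IUT, and Pax5 had 0 counts in 5 of the 6 IUT libraries. Single genes differed in recipient cells, where Pax5 had 1 count in uninjected pups and 10 in DC-depleted pIUT, and Blk had 0 counts in uninjected pups and 90, 1322 and 1445 after IUT. Recipient uninjected cells, which had the most Cxcl13, also had the highest monocyte and macrophage sum, at 3289 CPM. That sum was 1116 CPM in maternal uninjected cells and 1323 CPM in recipient DC-depleted pIUT. The stromal sum in recipient uninjected cells was 0 CPM. The part of any of these genes in the levels of Cxcr5 and Cxcl13 was not tested.

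Ccr7, Ccr9, Cxcr3, Cxcr6 and Xcl1, genes of T cells and NK cells, are described next. Ccr7, which guides T cells and mature DC to lymph nodes, was at 84.4 CPM in maternal uninjected cells, 6.66 after mIUT, 0 after pIUT and 2.03 after pIUT with DC depletion. In recipient cells Ccr7 was at 39.9, 1.57, 85.6 and 69.4 CPM. Ccr9, the receptor of thymocytes and gut-homing cells, was at 20.8, 27.2, 0.712 and 9.30 CPM in the maternal libraries and at 14.7, 34.2, 123 and 31.1 CPM in recipient cells. Both were thus lowest in maternal DC control pIUT, and recipient cells of the same pool had the highest Ccr9. Cxcr3, which marks effector T cells and NK cells, was at 38.1, 0, 0 and 2.60 CPM in maternal and at 0, 1.99, 12.4 and 32.5 CPM in recipient libraries. Cxcr6, the receptor of Cxcl16, was at 40.4, 17.4, 11.5 and 3.79 CPM in maternal and at 0, 9.69, 41.1 and 59.5 CPM in recipient libraries. Xcl1, made by NK and activated CD8 T cells for DC that bear Xcr1, was at 35.1, 0, 0 and 0.363 CPM in maternal and at 0, 0.907, 24.6 and 26.9 CPM in recipient libraries. These 3 genes were highest in the uninjected library among maternal cells and at 0 in the uninjected library among recipient cells, which is also the library with the most missing genes.

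Other T and NK cell measures are given beside them. T cell receptor reads numbered 23200 in maternal uninjected cells and 41052 in recipient DC control pIUT, and between 1754 and 9995 in the other 6 libraries. The sum of 6 NK cell genes was 988 CPM in maternal uninjected cells, 654 and 769 CPM in recipient DC control and DC-depleted pIUT, and at most 201 CPM elsewhere. Of these genes Ncr1 had 0 counts in recipient uninjected cells and in the 3 maternal IUT libraries, whereas Klre1 was at 27.6 CPM in recipient uninjected cells and at 0.488, 5.71 and 7.17 CPM after IUT. The part of T and NK cell content in these levels was not tested. Ccl5, a ligand made by the same cells, was at 314, 13.9, 2.71 and 0.939 CPM in maternal and at 18.4, 2.72, 18.4 and 28.5 CPM in recipient libraries. Ccr4 and Ccr10, skin-homing receptors, had 0 counts in all 4 maternal libraries, and reached 2.90 and 1.93 CPM in recipient DC control pIUT. Ccr8, another skin-homing receptor, was at 9.81 CPM in maternal and 10.8 CPM in recipient DC control pIUT and at 0 in recipient uninjected cells.

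**Figure D4:**
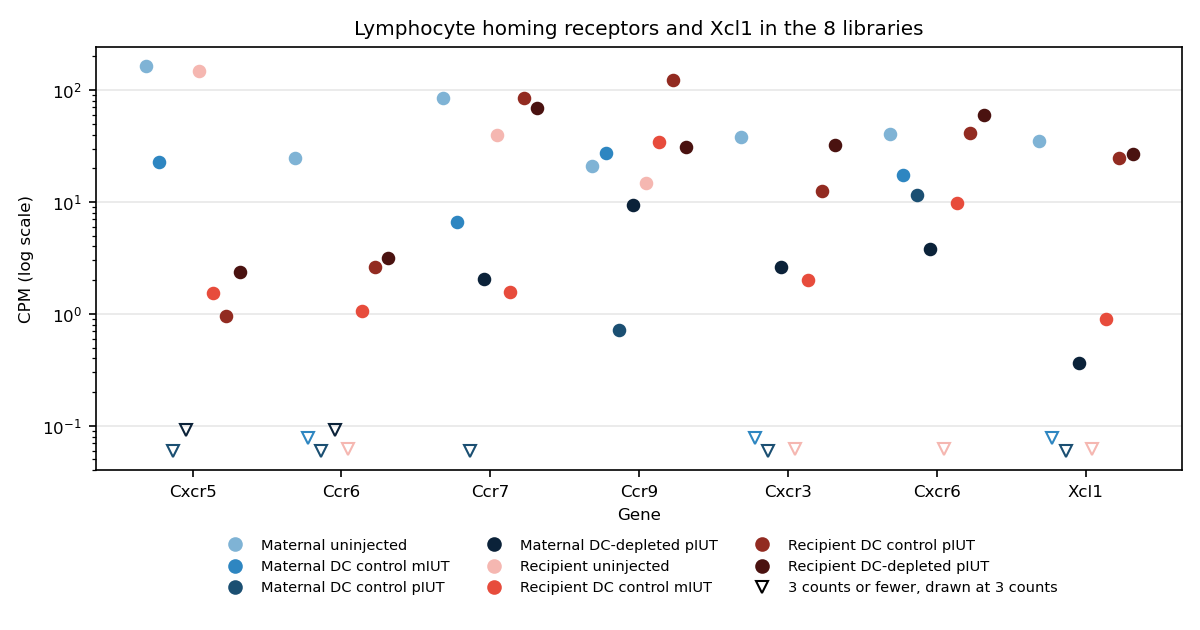
CPM on a log scale of 6 lymphocyte homing receptors and Xcl1 in the 8 pooled libraries (blue maternal, red recipient; open triangles mark 3 counts or fewer, drawn at the level of 3 counts). Cxcr5 is at 163 and 149 CPM in the uninjected libraries and at most 22.8 CPM in the IUT libraries, and Cxcr3, Cxcr6 and Xcl1 are not detectable in recipient uninjected cells.

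Members of monocytes, macrophages, mature DC and eosinophils are described together, and they did not share 1 order of levels. Ccr2, which brings monocytes out of the marrow, was at 178 CPM in maternal uninjected cells, 13.3 after mIUT, 0 after pIUT and 4.03 after pIUT with DC depletion. In recipient cells it was at 105, 10.7, 40.0 and 133 CPM. Ccr2 thus had 0 counts in maternal DC control pIUT, the library in which its ligands Ccl2 and Ccl7 were highest. Ccl6 was at 1105, 862, 275 and 56.6 CPM in maternal and 679, 450, 300 and 522 CPM in recipient libraries. Ccl9, its neighbour on chromosome 11, was at 372, 37.2, 36.0 and 20.4 CPM in maternal and 250, 11.7, 41.6 and 94.4 CPM in recipient libraries. Both were lowest, among maternal libraries, in DC-depleted pIUT. Ccl22, a product of mature DC, was at 10 CPM in maternal uninjected cells, 8.50 in recipient DC control pIUT and 20.7 in recipient DC-depleted pIUT, with at most 1 count in each other library. Ccl24, an eosinophil attractant of macrophages, was at 18.5, 0, 0 and 6.03 CPM in maternal and 54.2, 0, 2.17 and 12.9 CPM in recipient libraries. Ccr3, the eosinophil receptor that binds it, was at 12.9 CPM in maternal uninjected cells and at 6.18 CPM in recipient DC-depleted pIUT. The sum of 8 monocyte and macrophage genes ranged from 185 CPM in maternal DC-depleted pIUT to 3289 CPM in recipient uninjected cells, and its part in these levels was not tested.

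Cxcr4 was the most even receptor above 20 CPM. It was at 90.1, 49.8, 34.5 and 9.69 CPM in maternal and at 35.6, 93.1, 26.8 and 12.6 CPM in recipient libraries, so that DC-depleted pIUT was the lowest of each origin. Its ligand Cxcl12, a product of stromal cells, was at 10.9 CPM in maternal DC control pIUT and at most 3.45 CPM elsewhere. The sum of 6 stromal genes was also highest there, at 92.2 CPM against 0 to 49.3 CPM in the other libraries. Ccl25, the thymic and gut ligand of Ccr9, was at 0.180, 26.3, 2.87 and 5.54 CPM in maternal and at 20, 4.60, 4.47 and 2.13 CPM in recipient libraries. The libraries with the most Ccl25 also had the highest sums of 6 hepatocyte genes (4438 and 14194 CPM) and 6 epithelial genes (404 and 2478 CPM), whose part was not tested. Cxcl16, a membrane-bound ligand, was at 3.49, 17.2, 0 and 1.21 CPM in maternal and at 35.6, 1.12, 7.04 and 22.5 CPM in recipient libraries. Cx3cl1, the other tethered ligand, was at 12.2 CPM in maternal DC control mIUT, 1.19 CPM in recipient DC control mIUT and 2.46 CPM in recipient DC-depleted pIUT, with 0 counts in the other 5.

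Of the 4 atypical receptors, Ackr1 was the one measured above 2 CPM. Ackr1, which binds many inflammatory chemokines on red cells and venules, was at 16 CPM in maternal uninjected cells, 0 after mIUT, 17 after pIUT and 27.5 after pIUT with DC depletion. In recipient cells it was at 21.3, 0, 0 and 0.401 CPM. The 4 libraries with at least 16 CPM were those with the highest sums of erythroid genes (60836, 92281, 131058 and 83952 CPM), and that part was not tested. About 23% of Ackr1's 31-base stretches recur in Cadm3. Ackr3, a scavenger of Cxcl12, was at 1.33 CPM in maternal DC-depleted pIUT and at most 0.383 CPM elsewhere. Ackr4, a scavenger of Ccl19, Ccl21 and Ccl25, was between 0 and 0.837 CPM. Ackr2 had 0 counts in every library, and 3 counts of a library correspond to between 0.0547 and 0.105 CPM.

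The first question was how maternal cells after IUT compared with maternal cells of uninjected pups. In DC control mIUT, Cxcl13, Cxcr5, Cxcr3 and Xcl1 were lower and Cxcr2, Ccr1, Ccl25 and Cx3cl1 were higher. Of 38 members tested, 8 were at least 4-fold higher, or 21.1% beside 17.9% of all genes tested, and 21 lower, or 55.3% beside 36.4%. Among the higher members Cx3cl1 was at least 158-fold, Ccl25 146-fold (70.7 to 364) and Ccl12, a Ccr2 ligand, at least 70.7-fold higher. Among the lower members Cxcl13 was at least 1653-fold, Cxcr3 at least 492-fold and Xcl1 at least 452-fold lower. By role, 6 of 8 CC receptors and 6 of 10 inflammatory CC ligands were lower. The maternal DC control mIUT library was 1 of the 2 that missed common genes. In the order of libraries given above, the maternal sums were 2531, 592, 163 and 607 CPM for T cell genes and 1116, 763, 253 and 185 CPM for monocyte and macrophage genes, and their part was not tested.

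In DC control pIUT, Cxcl1, Cxcl2, Cxcl3, Ccl2, Ccl3 and Ccl7 were higher than in maternal uninjected cells, and Ccr2, Ccr3, Ccr6, Ccr7, Ccr9 and Cxcr5 were lower. Of 42 members, 16 were higher (38.1%, beside 24.2% of all genes) and 18 lower (42.9%, beside 23.7%). All 3 neutrophil-attracting ligands tested were higher. Of 11 inflammatory CC ligands 4 were higher and 5 lower (Ccl5, Ccl6, Ccl9, Ccl22 and Ccl24), and of 8 CC receptors 2 were higher (Ccr1 and Ccr8) and 6 lower. Ccl6 was 4.02-fold lower and fell below 4-fold with library-size scaling and with DESeq2 size factors, at log2 folds of -1.66 and -1.81. Cxcl3 was 207-fold higher (154 to 283), Ccl7 at least 167-fold and Cxcl11 at least 103-fold. Cxcl2 was 16.6-fold (15.8 to 17.5), Ccl2 15.1-fold (12.3 to 18.6) and Ccl3 6.57-fold higher (6.36 to 6.78), whereas Ccl4 differed by 1.35-fold. Ccr2 was at least 3006-fold, Cxcr5 at least 2750-fold and Cxcl13 at least 2160-fold lower.

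In DC-depleted pIUT, 7 of 40 members were higher (17.5%, beside 23.6% of all genes) and 22 lower (55%, beside 26.1%) than in maternal uninjected cells. All 6 CXC receptors and all 3 neutrophil-attracting ligands tested were lower, and with a floor of 10 counts Cxcl1 and Cxcl3 were below 4-fold, at log2 folds of -1.53 and -1.93. Cxcr5 was at least 1795-fold, Cxcl13 at least 1410-fold and Ccl5 334-fold lower (235 to 492). Ccl25 was 30.8-fold higher (14.7 to 77.7), Ackr3 at least 17.3-fold and Cxcl15, a lung chemokine with 41 counts, at least 16.1-fold. Over the 3 IUT comparisons, which share the uninjected library, 37 members were tested in each, and 11 were lower in each (Ccl22, Ccl5, Ccl9, Ccr2, Ccr3, Ccr6, Ccr7, Cxcl13, Cxcr3, Cxcr5 and Xcl1) and 2 were higher in each (Ccl12 and Ccl25). These are 29.7% and 5.41% of the members, beside 12.1% and 3.34% of the 13371 genes tested in each. Without maternal DC control mIUT the numbers were 13 and 3 of 38 members (34.2% and 7.89%, beside 15.7% and 9.93% of genes), so that members higher in each were not more frequent than genes. With a floor of 10 counts Ccl12 was below 4-fold in both pIUT libraries, at log2 folds of 1.55 and 1.67.

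DC depletion before pIUT was compared with DC control pIUT. In maternal cells Cxcl1, Cxcl2, Cxcl3, Ccl2, Ccl3, Ccl4, Ccl7 and the receptors Ccr1 and Cxcr2 were lower, and 5 CC receptors with at most 36 counts in DC control pIUT were higher. Of 38 members, 12 were higher (31.6%, beside 24.9% of all genes) and 16 lower (42.1%, beside 28.2%). Cxcl3 was at least 2629-fold lower, Ccl3 1266-fold (810 to 2103), Cxcl2 200-fold (166 to 244), Ccl2 90.4-fold (53.7 to 166), Cxcl1 88.8-fold (34.5 to 327) and Ccl4 67.5-fold lower (56.3 to 81.7). With a floor of 10 counts the log2 fold was -9.62 for Cxcl3 and -10.31 for Ccl3. All 3 neutrophil-attracting and all 3 interferon-induced ligands tested were lower, and of 10 inflammatory CC ligands 5 were lower, 1 (Ccl24) higher and 4 neither, among which Ccl5 was lower with library-size scaling, at a log2 fold of -2.11. Cxcr2 was 32.3-fold lower (25.7 to 41.1) and Ccr1 17-fold lower (15.9 to 18.3). Ccl24 was at least 102-fold and Ccr2 at least 67.9-fold higher, from 199 and 133 counts. Several marker sums were lower after DC depletion too: the endothelial sum went from 62.7 to 1.42 CPM, the stromal sum from 92.2 to 17.6 CPM, the NK cell sum from 141 to 84.6 CPM, the B cell sum from 49.7 to 30.3 CPM and the monocyte and macrophage sum from 253 to 185 CPM. Within the last list Cd68 went from 171 to 14.1 CPM and C1qb from 12.9 to 63.6 CPM. Other sums were higher, with neutrophil genes at 1608 and 10891 CPM, T cell genes at 163 and 607 CPM, erythroid genes at 92281 and 131058 CPM and conventional DC genes at 51.9 and 149 CPM in DC control and DC-depleted pIUT. Among the DC genes Itgax went from 611 counts to 1 and Xcr1 from 75 to 8, while Zbtb46 went from 21 to 76.5 CPM and H2-Ab1 from 17.3 to 69.8 CPM. The part of any of these cell types in the ligand levels was not tested.

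In recipient cells of the same treatments, Cxcl2, Cxcl3 and Cxcr2 were lower after DC depletion. Of 48 members, 8 were higher (16.7%, beside 14.4% of all genes), 5 lower (10.4%, beside 7.21%) and 35 neither, so both shares were near those of all genes. Cxcl2 was 25-fold lower (22.4 to 28) and Cxcr2 10.7-fold lower (9.78 to 11.6), both in the same direction as in maternal cells. Ccr1l1, a relative of Ccr1, was at least 8.5-fold lower from 21 counts. Cxcl12 was at least 43.4-fold, Cx3cl1 at least 37.1-fold and Cxcl14 at least 13.2-fold higher, from 158, 135 and 48 counts against 0. With a floor of 10 counts Cxcl14 and Ccr1l1 were below 4-fold, at log2 folds of 1.98 and -1.35, and 4 members were higher and 3 lower. Recipient Ccl3 and Ccl4 differed by 1.88-fold and 1.47-fold, and Xcl1 by 1.09-fold. The neutrophil sum was 48538 CPM in DC control and 19922 CPM in DC-depleted pIUT, but its genes differed in direction. Retnlg went from 1531 to 43.5 CPM, Ltf from 5558 to 484 CPM and Ngp from 14217 to 1567 CPM, with Camp, S100a8 and S100a9 lower as well, whereas Mpo went from 416 to 10458 CPM and Elane from 77.2 to 1806 CPM. The part of these genes in the levels of Cxcl2 and Cxcr2 was not tested.

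Recipient cells after IUT were also compared with recipient uninjected cells, the library that missed 9.51% of common genes. In DC control mIUT Cxcr2 and Ccr1 were higher and most inflammatory CC ligands tested were lower. Of 34 members, 13 were higher (38.2%, beside 45% of all genes) and 17 lower (50%, beside 17.6%). Of 8 inflammatory CC ligands tested, 7 were lower, among them Ccl9 by 21.3-fold (19.1 to 23.8) and Ccl3 by 14.9-fold (11.8 to 19.1). Cxcr6 was at least 156-fold, Cxcr3 at least 32-fold and Ccr3 at least 27.5-fold higher. Cxcl13, with 1 count against 55115, gave a ratio with an interval of 5865 to 1290865, and Ccl24 was at least 518-fold lower. The recipient sums were 688, 766, 5063 and 1252 CPM for T cell genes and 3289, 1299, 670 and 1323 CPM for monocyte and macrophage genes, and their part was not tested.

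After pIUT, 19 of 42 recipient members were higher (45.2%, beside 45.4% of all genes) and 9 lower (21.4%, beside 13.3%) than in uninjected pups, so the share of higher members was near that of all genes. Cxcr6 was at least 662-fold, Xcl1 at least 396-fold and Cxcr3 at least 199-fold higher. Cxcl13 was at least 17157-fold and Ackr1 at least 321-fold lower, and Cxcr5 was 157-fold lower (116 to 217). In recipient DC-depleted pIUT, 22 of 47 members were higher (46.8%, beside 47.1%) and 9 lower (19.1%, beside 11%). Cxcr6 was at least 960-fold, Cxcr3 at least 524-fold and Xcl1 at least 433-fold higher, and Cxcl13 was 12495-fold (5354 to 38483), Cxcr5 63-fold (53 to 75.5) and Ackr1 53.1-fold lower (34.9 to 85.1). Over the 3 comparisons 33 members were tested in each, and 6 were lower in each (Ackr1, Ccl24, Ccl25, Ccl7, Cxcl13 and Cxcr5) and 9 higher in each (Ackr4, Ccr3, Ccr4, Ccr6, Ccr8, Cxcl9, Cxcr3, Cxcr6 and Xcl1), and all 9 had 0 counts in the uninjected library. These are 18.2% and 27.3% of the members, beside 9.3% and 34.8% of the 13189 genes tested in each. Without recipient DC control mIUT the numbers were 6 and 16 of 40 members (15% and 40%, beside 10.4% and 40.7% of genes), so that the share higher in each was near that of all genes. Of the members called in all 3 comparisons, Ackr4, Ccr4 and Cxcl9 were below 4-fold in at least 1 with a floor of 10 counts. Ccl24 and Ccl25 were below 4-fold in 1 comparison each with library-size scaling. Of the 16 members, Ackr3, Ackr4, Ccl1, Ccl17 and Cxcl1 were below 4-fold in at least 1 pIUT comparison with a floor of 10 counts.

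The source of donor cells was compared within DC controls. Maternal cells of pIUT had more Cxcl1, Cxcl2, Cxcl3, Ccl2, Ccl3 and Ccl7 and less of the neutrophil receptors Cxcr2 and Cxcr1 than those of mIUT. Of 35 members, 16 were higher (45.7%, beside 37.1% of all genes) and 12 lower (34.3%, beside 19.4%). Of 9 inflammatory CC ligands 4 were higher and 2 lower (Ccl5 and Ccl12), and with library-size scaling Ccl5 was below 4-fold, at a log2 fold of -1.80. Ccl2 was at least 495-fold, Ackr1 at least 220-fold and Ccl7 at least 166-fold higher, and Cxcr5 was at least 385-fold, Cxcr1 at least 307-fold and Cxcl16 at least 290-fold lower. Ccl2, Ackr1 and Ccl7 had 0 counts in maternal mIUT, the library in which 4.86% of common genes were below 1 CPM. The maternal neutrophil sums were 1608 CPM in pIUT and 168494 CPM in mIUT, and their part was not tested. In recipient cells 23 of 41 members were higher in pIUT (56.1%, beside 20.3%) and 3 lower (7.32%, beside 13.9%). The 3 lower members were Cx3cl1 (at least 17.8-fold), Ccr1 (10-fold, 9.76 to 10.3) and Cxcr2 (8.78-fold, 8.52 to 9.04). Of 12 inflammatory CC ligands 9 were higher and none lower, with Ccl4 33.7-fold (25.3 to 46.1) and Ccl3 22.5-fold higher (17.9 to 28.8). Ccl22 was at least 81.3-fold and Ccr7 54.6-fold higher (40.7 to 74.9). The sum of T cell genes was 5063 CPM in recipient pIUT and 766 CPM in recipient mIUT, with Cd3d close in both (386 and 399 CPM), and the neutrophil sums were 48538 and 275329 CPM.

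**Figure D5:**
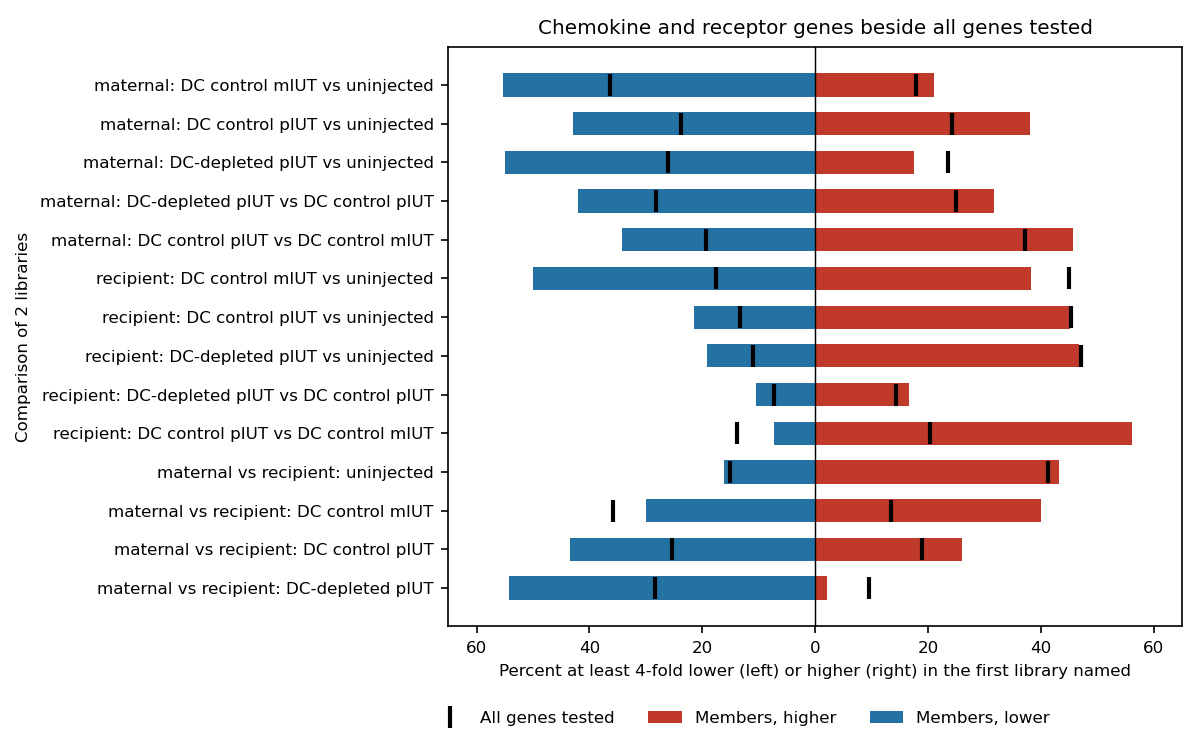
Percent of tested members at least 4-fold higher (red, right) or lower (blue, left) in the first library named, for the 14 comparisons of 2 libraries; black ticks mark the same share of all genes tested. The longest red bar is recipient pIUT against mIUT, 56.1% beside 20.3% of all genes, and for recipient pIUT against uninjected the red bar ends at 45.2% beside 45.4%.

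Maternal cells were last compared with recipient cells of the same pool. In uninjected pups 16 of 37 members were higher in maternal cells (43.2%, beside 41.3% of all genes) and 6 lower (16.2%, beside 15.1%). Cxcr6 was at least 652-fold, Cxcr3 at least 615-fold and Xcl1 at least 565-fold higher, while Ccl7 was at least 118-fold, Ccl25 111-fold (53.7 to 277) and Cxcl16 10.2-fold lower (8.54 to 12.2). Cxcr6, Cxcr3 and Xcl1 had 0 counts in recipient uninjected cells, the library in which 9.51% of common genes were below 1 CPM. Maternal and recipient sums of this pool were 2531 and 688 CPM for T cells, 988 and 28.1 CPM for NK cells and 7095 and 1287 CPM for B cells. They were 1116 and 3289 CPM for monocytes and macrophages and 2732 and 15671 CPM for neutrophils. The part of these cell types was not tested. In DC control mIUT 12 of 30 were higher (40%, beside 13.4%) and 9 lower (30%, beside 35.9%), and with a floor of 10 counts the 9 became 4. Cxcr1 was at least 174-fold, Ccl4 58.7-fold (44 to 80) and Ccl12 at least 52.1-fold higher. Cxcr3, Ccr3 and Cxcl10 were at least 25.7-fold, 22.1-fold and 18.5-fold lower. These lower genes had 0 counts in the maternal library, the other one that missed common genes. Maternal and recipient sums of this pool were 168494 and 275329 CPM for neutrophils, 13623 and 135 CPM for erythroid cells and 4438 and 203 CPM for hepatocytes. They were 592 and 766 CPM for T cells, 201 and 39.4 CPM for NK cells and 404 and 4.08 CPM for epithelial cells. The part of these cell types was not tested.

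In DC control pIUT 12 of 46 members were higher in maternal cells (26.1%, beside 19%) and 20 lower (43.5%, beside 25.3%). Receptors were on the lower side, with 9 of 11 CC receptors lower and none higher, among them Ccr7 at least 1444-fold and Ccr2 at least 675-fold. Marker sums in maternal and recipient cells of this pool were 1608 and 48538 CPM for neutrophils and 163 and 5063 CPM for T cells. They were 141 and 654 CPM for NK cells, 253 and 670 CPM for monocytes and macrophages and 49.7 and 218 CPM for B cells. Conventional DC genes summed to 51.9 and 407 CPM and erythroid genes to 92281 and 27425 CPM. The part of these cell types was not tested. Xcl1 was at least 414-fold lower. On the higher side were Ackr1 (at least 256-fold), Cxcl3 (212-fold, 161 to 284) and Cxcl12 (at least 165-fold). In DC-depleted pIUT 1 of 46 members was higher (2.17%, beside 9.61%) and 25 lower (54.3%, beside 28.3%). The single higher member was Ackr1, 68.6-fold (45 to 110), and Ccl22 was at least 227-fold, Xcl1 73.9-fold (42.2 to 143) and Ccl3 53.9-fold lower (34.4 to 89.7). In this pool the maternal and recipient sums were 10891 and 19922 CPM for neutrophils and 607 and 1252 CPM for T cells. They were 84.6 and 769 CPM for NK cells, 185 and 1323 CPM for monocytes and macrophages and 30.3 and 265 CPM for B cells. Conventional DC genes summed to 149 and 562 CPM and erythroid genes to 131058 and 17541 CPM. The part of these cell types was not tested. Maternal Ccl3 was thus 12.5-fold higher than recipient Ccl3 in DC control pIUT (12 to 13) and 53.9-fold lower in DC-depleted pIUT.

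A difference of origin shared by the 4 pools was tested with edgeR's quasi-likelihood test, with the pool as a block and Benjamini-Hochberg adjustment. It called 0 of 36 members tested and 0 of 13353 genes (0%), with 1 member and 273 genes at an unadjusted p under 0.05. That member was Cxcr2, which was lower in maternal cells by a log2 fold change of -1.70 and had an adjusted p of 1 in edgeR. DESeq2 called 0 of 54 members tested and 267 of 25066 genes. It gave an adjusted p for 15832 of those genes, and the others could not be called. In DESeq2 9 of the 54 members and 1826 of the 25066 genes had an unadjusted p under 0.05. The lowest adjusted p of a member was 0.0535. By the 4-fold rule, among 51 members tested in at least 1 pool, Cxcl3 was higher in maternal cells in 3 pools and lower in none (1.96%, beside 0.88% of 20005 genes). Ccr4 was lower in 3 and higher in none (1.96%, beside 3.23%), though at a floor of 10 counts it was below 4-fold in DC control mIUT, at a log2 fold of -1.50, and 19 members were higher in some pools and lower in others (37.3%, beside 26.9%).

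Genes of the signalling pathway downstream were taken from lists of textbook genes. Of 17 genes for Gi proteins and their effectors, 9 were lower and none higher in maternal DC-depleted pIUT than in maternal uninjected cells, where 26.1% of all genes were lower. Against recipient cells of the same pool 11 were lower and none higher, where 28.3% of all genes were lower. Against maternal DC control pIUT 6 were lower and 2 higher, beside 28.2% and 24.9% of all genes. The maternal DC-depleted library also had the highest erythroid sum, at 131058 CPM, and its part was not tested. The adaptor Elmo1 was at 40.0 CPM in maternal uninjected cells and 0.333 CPM in maternal DC-depleted pIUT, and Rac2, the GTPase of leukocyte movement, at 1471 and 110 CPM. Of 12 desensitization genes (receptor kinases, arrestins and RGS proteins), 8 of 11 tested were lower and none higher in maternal DC-depleted pIUT than in uninjected cells. In recipient DC control mIUT, 8 of the 17 effector genes were higher and none lower than in uninjected pups, where 45% of all genes were higher, so this count is near the share of all genes. Of 6 genes for cleavage and presentation, Mmp9 and Mmp8, proteases of neutrophil granules that cut chemokines, were at 2357 and 5243 CPM in maternal and 5825 and 10768 CPM in recipient DC control mIUT. Both proteases were lowest in maternal DC-depleted pIUT, at 7.90 and 16.8 CPM. Against uninjected cells, 2 of the 6 genes (Mmp9 and Mmp8) were higher and 2 (Sdc1 and Ext1) lower in maternal DC control mIUT. Of all genes tested there, 17.9% were higher and 36.4% lower. In recipient DC control mIUT 4 of the 6 were higher and 2 lower, beside 45% and 17.6% of all genes.

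Family genes outside the naming rule were measured too. Pf4, a platelet chemokine, was at 341 CPM in recipient and 87.2 CPM in maternal uninjected cells, and at most 37.1 CPM after IUT. Xcr1, the receptor of Xcl1 on cross-presenting DC, was at 0 CPM in the maternal uninjected library, where Xcl1 was at 35.1 CPM, and at 4.72 CPM in recipient DC-depleted pIUT. Ccrl2, an atypical chemerin receptor of activated myeloid cells, was at 476 CPM in maternal and 520 CPM in recipient DC control pIUT and at most 103 CPM in the other libraries. It was thus high in both DC control pIUT libraries. Cx3cr1, the receptor of Cx3cl1, was at 26.5, 0, 0.138 and 2.36 CPM in maternal and at 60.8, 1.43, 33.7 and 43.7 CPM in recipient libraries. Ppbp and Cmklr1 stayed at or below 2.85 and 0.771 CPM, and Gpr35 ranged from 0 to 110 CPM.

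The 35 members below 20 CPM in every library included 26 that were above 3 counts in at least 1. The highest of them was Cxcr1, at 18.2 CPM in maternal DC control mIUT. Ccl27a, a skin chemokine, reached 6.25 CPM, and Ccl17, a ligand of Ccr4, reached 2.74 CPM. Cxcl5, the remaining neutrophil-attracting ligand, had 11 counts in recipient DC control pIUT and 0 in the other 7 libraries.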

How the data were processed

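Mononuclear cells of pooled pups were sequenced in 8 libraries. The authors deposited estimated counts per gene, which are not normalized and came from the nf-core RNA-seq pipeline with GRCm39 and GENCODE M26. The study's methods name featureCounts, while the fractional values are of the kind salmon writes, and they were rounded to whole numbers here. The authors also deposited MiXCR clonotype tables whose clone count gives the reads of each clonotype, and these were summed by chain. No column was left out (0), and columns were assigned to samples through the library number in the sample titles.

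Gene identifiers were matched to GENCODE M39 (97.99% matched), which gave names, positions, exon lengths and transcript starts. CPM used TMM factors from edgeR 4.0.16 in R 4.3.3. Folds of 2 libraries were ratios of CPM after raising counts to a floor of 3, with intervals from the exact binomial distribution. Origin was tested with edgeR's quasi-likelihood test (adjusted p under 0.05), and DESeq2 1.42.0 was an alternative. Both calculations were run on simulated data simpler than these pooled libraries, which checks the code and not the calls made here. Stretches of 31 bases shared with other transcripts were counted, and promoters were read from the GRCm39 genome with pysam 0.24.0. Tables and figures were made in Python 3.11.15 (scipy 1.17.1, pandas 2.3.3, numpy 2.4.6, matplotlib 3.10.9).

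Members named are those with at least 20 CPM in a library, given in all 8 libraries, up to 3 with the highest and 3 with the lowest folds of each comparison, Xcl1, Cx3cl1 and the atypical receptors. Others, such as Cxcl1, Cxcl9, Cxcl10, Ccl7 and the receptors beside their ligands, were named after their values were seen. A member that the rule would name is not reported here, and it is counted among the members. The members, the roles, the pathway lists (Gi proteins and effectors, desensitization, cleavage and presentation, family genes outside the rule), the marker lists and the tests were chosen with earlier results of these data known. Marker lists covered B, T and NK cells, neutrophils, monocytes and macrophages, conventional DC, mast cells with basophils and eosinophils, megakaryocytes, erythroid, endothelial, stromal and epithelial cells and hepatocytes. Alternatives were other scalings (library size, DESeq2 size factors), no filter on low counts, a floor of 10 counts, the exact test's fold change at the study's dispersion of 0.4, no pool block, leaving out each pool, and, chosen after seeing the data, leaving out an mIUT library.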

Additional observations from a re-analysis of the deposited data

Results flagged for a closer look

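Members that were at least 4-fold higher in one origin and at least 4-fold lower in the other under the same contrast are listed here. Values are the maternal log2 fold minus the recipient log2 fold. The difference between origins was not tested, and each fold is between 2 libraries. The share of all genes that meet this rule was not counted, so the list cannot be read as particular to chemokine genes. In DC control mIUT against uninjected, 36.4% of all genes tested were lower in maternal and 45% were higher in recipient cells. Where a library had 3 counts or fewer, its fold was computed against 3 counts.

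In DC control mIUT against uninjected, Cxcr3 (-13.94), Xcl1 (-12.69), Ccr6 (-12.40) and Ccr3 (-12.16) were lower in maternal and higher in recipient cells. All 4 had 0 counts in maternal mIUT and in recipient uninjected cells, the libraries that missed the most common genes. Ccl25 (9.31) and Cxcl16 (7.29) were higher in maternal and lower in recipient cells, with counts of 1018 against 7 and 666 against 136 in maternal cells.

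In DC control pIUT against uninjected, Xcl1 (-17.84), Cxcr3 (-16.97), Ccl22 (-14.50), Ccr6 (-14.12), Ccr3 (-13.51) and Ccr9 (-7.94) were lower in maternal and higher in recipient cells. Ccr9 was the one of them with counts in all 4 libraries, 36 against 810 in maternal and 5542 against 709 in recipient cells. Ccl7 (9.75) and Ccl25 (6.15) went the other way. In DC-depleted pIUT against uninjected, Xcl1 (-15.35), Ccl22 (-15.16), Ccr6 (-13.76), Cxcr6 (-13.33), Cxcr3 (-12.90) and Ccr3 (-10.42) were lower in maternal and higher in recipient cells, while Ccl25 (8.18) and Ccl7 (6.79) were the reverse. Ccl25 thus had the same sign in the 3 contrasts, which share the uninjected libraries. With library-size scaling recipient Ccl25 was at a log2 fold of -2.00 in the pIUT contrast, just short of 4-fold, and with a floor of 10 counts maternal Ccl7 was at 1.82 in the DC-depleted contrast.

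In DC control pIUT against DC control mIUT, which uses no uninjected library, Ccr7 (-12.58), Cxcl16 (-10.84), Ccl12 (-7.06) and Ccl5 (-5.12) were lower in maternal and higher in recipient cells. Ccl5 had counts in all 4 libraries, 137 against 539 in maternal and 832 against 78 in recipient cells, and with library-size scaling its maternal log2 fold was -1.80, below 4-fold.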

How the results depend on the processing

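With a floor of 10 counts in place of 3, members higher in recipient DC-depleted than in DC control pIUT went from 8 to 4 and lower ones from 5 to 3, and members lower in maternal than in recipient mIUT cells went from 9 to 4, so that 12 of 16 called members were higher there. The other 25 of 28 counts stayed within 1.5 times, as did all 28 under library-size scaling, DESeq2 size factors, no filter and the exact test's fold change. No fold among the 82 checked changed direction, but sizes moved: beyond its counting interval, or by 0.1 on the log2 scale for a bound, 63 moved under library-size scaling, 60 with a floor of 10 counts, 59 with the exact test's fold change and 39 under DESeq2 size factors. Of 377 calls of a member in a comparison, 55 were lost and 0 gained with the higher floor, 12 and 28 under library-size scaling, 7 and 3 under DESeq2 size factors and 0 and 13 with the exact test's fold change. For example, the bound for Cx3cl1 in maternal mIUT against uninjected went from a log2 fold of 7.31 to 5.57 with the higher floor. Library-size scaling moved the median log2 fold of all genes by -0.63 to 0.71, and the members moved with it. DESeq2 called 267 genes in the test of origin and edgeR 0. Leaving out each pool gave 0 members and 0 genes each time, as did dropping the pool block and the filter. The cause of these changes was not tested, apart from the higher floor, which by its construction shrinks folds of low genes. Without recipient DC control mIUT, 16 members in place of 9 were higher in each remaining IUT library than in uninjected cells, with fewer libraries required to agree. The test of origin was paired within pools, and the comparisons between treatments hold 1 library a group, which pairs none. A member with under 10 counts in both libraries, as 13 to 31 of the 61 had, depending on the comparison, could not be compared at this depth.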

Other observations

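Levels of eosinophil and platelet genes are given here beside members of the family. The sum of 6 mast cell, basophil and eosinophil genes was 5323 CPM in recipient uninjected cells, where the eosinophil attractant Ccl24 was at 54.2 CPM, with Mcpt8, Cpa3, Fcer1a and Siglecf at 0 counts, so that Prg2 and Epx made up the sum. In that library the eosinophil receptor Ccr3 had 0 counts. The sum was 1518 and 1751 CPM in recipient DC control and DC-depleted pIUT, where Ccr3 was at 3.32 and 6.18 CPM. All 6 megakaryocyte and platelet genes, the chemokine Pf4 among them, had 0 counts in maternal DC control mIUT, and their sum was 371 CPM in recipient uninjected cells, of which Pf4 made up 341 CPM. Endothelial genes summed to at most 62.7 CPM, in maternal DC control pIUT.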
